A study of Homo sapiens with 9 samples.

Results

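The replication-dependent histone genes encode the bulk of the H1, H2A, H2B, H3 and H4 proteins that package newly made DNA. They were taken from the expression table by symbol, as H1-1 to H1-6 and the numbered H2AC, H2BC, H3C and H4C genes, with pseudogenes and letter-suffixed symbols left out. Of 41041 genes in the table, 66 were such genes, 6 for H1, 16 for H2A, 17 for H2B, 13 for H3 and 14 for H4. Another 3 genes of the family (H2AC1, H2BC1 and H4C13) were not analysed here. Poly(A) RNA was sequenced from SW480, a long-established line of human colorectal cancer cells, and all 9 libraries came from cells kept at 1% oxygen for 48 h. The 3 groups, of 3 biological replicates each, were cells given sulforaphane with 5-fluorouracil (SFN+5-FU), cells given sulforaphane at 25 µM (SFN), and untreated hypoxic cells (control). Sulforaphane is an isothiocyanate from cruciferous vegetables, and 5-fluorouracil is a pyrimidine analogue that blocks thymidylate synthase and so the supply of thymidine for DNA synthesis. The sources used here give neither the 5-fluorouracil dose nor the amount of sulforaphane combined with it, and no normoxic group and no group on 5-fluorouracil alone was analysed here. In the comparison of SFN+5-FU with SFN, the addition of 5-fluorouracil and a possible change of sulforaphane dose therefore cannot be told apart.

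These genes lie mostly in clusters on chromosomes 6 and 1, carry no introns as a rule, and are transcribed in S phase, when the cell doubles its chromatin. Their mRNAs are the only known animal mRNAs that end without a poly(A) tail. Instead they end just after a conserved RNA stem-loop, which is bound by the stem-loop binding protein SLBP and cut with the help of the U7 small nuclear ribonucleoprotein. Some of the genes also give longer, polyadenylated transcripts that run past the stem-loop. Because the libraries were selected for poly(A), the values below measure mainly whatever histone RNA carried a tail or passed the selection without one, and they are not a measure of total histone mRNA.

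The stem-loop is shown for 7 genes on which the results turn, because it marks where a tailless histone mRNA would end. Each line gives 26 bases of the GENCODE release 29 transcript, 5′ to 3′, with the 16-base stem-loop in capitals.
H2AC18: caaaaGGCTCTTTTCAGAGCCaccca
H2AC6: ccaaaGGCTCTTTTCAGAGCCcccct
H2BC5: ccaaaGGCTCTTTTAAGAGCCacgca
H2BC21: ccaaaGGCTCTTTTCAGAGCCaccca
H3C14: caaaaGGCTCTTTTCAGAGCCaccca
H4C15: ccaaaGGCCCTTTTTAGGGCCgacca
H4C8: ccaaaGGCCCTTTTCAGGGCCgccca
The H2A, H2B and H3 genes in this set share the GGCTCT left arm, and the H4 genes carry GGCCCT in its place. A match to the histone stem-loop consensus was found in an annotated transcript of 31 of the 66 genes, in 6 different versions, of which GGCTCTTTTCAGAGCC was the most common, with 17 genes. H2BC12 and H1-2, the most abundant members, had no match because their annotated transcripts, of 381 and 642 bases, are no longer than a coding sequence.

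The family was detected unevenly. Of the 66 genes, 33 had a mean of at least 1 FPKM (fragments scaled to transcript length and library size) over the 9 libraries and were tested. They were 2 H1, 8 H2A, 9 H2B, 6 H3 and 8 H4 genes, and 12 of them had a mean of at least 10 FPKM. The other 33 did not exceed 1.83 FPKM in any library, and H1-1 was listed at 0 in all 9. Over all 66 genes, H2BC12, which encodes an H2B, held 34.6% of the summed FPKM, and H1-2, a linker histone gene, held 98.3% of the H1 sum.

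Longer annotated transcripts were more common among the tested genes than among the others. In GENCODE release 29, 21 of the 33 tested genes had a transcript of over 700 bases, against 5 of the 33 genes below the filter, and the median longest transcript was 1196 bases against 411 bases. A stem-loop lay inside an annotated transcript for 25 of the tested genes and 6 of the others, and a polyadenylation hexamer (AATAAA or ATTAAA) lay in the last 40 bases of a transcript for 20 and 3. In H3C14, for example, 1154 annotated bases followed the stem-loop, and in H2BC21 1729 bases did. The most abundant members were exceptions. The longest transcripts of H2BC12, H1-2, H2AC18 and H2AC19 had 381, 642, 549 and 564 bases. The sources used here do not name the annotation behind the deposited FPKM, and an FPKM depends on the transcript length assumed, so the relation is a description only.

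**Figure D1:**
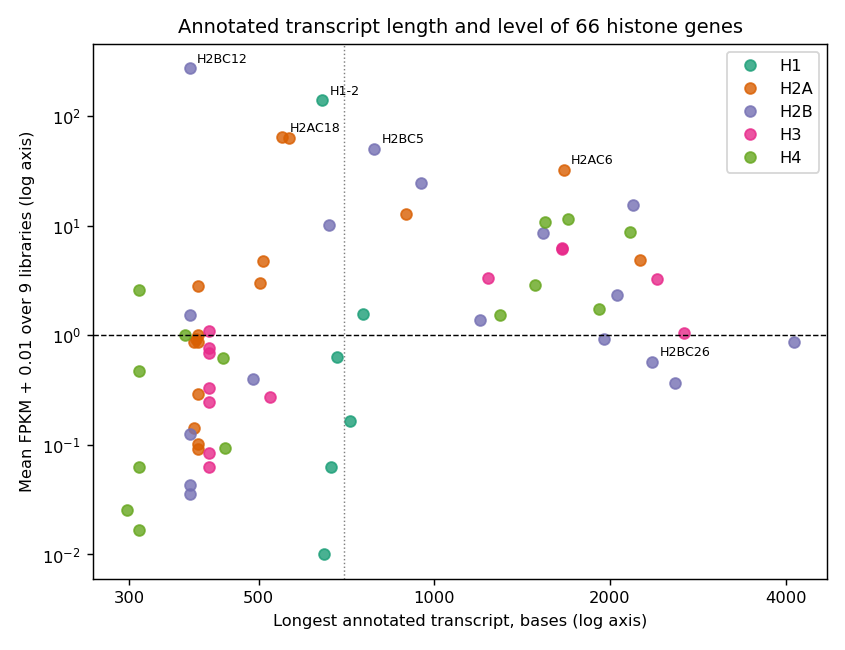
Mean FPKM over 9 libraries plus 0.01 (log axis) against the longest annotated transcript in bases (log axis) for the 66 histone genes, each point 1 gene coloured by class, with the dashed line at the filter of 1 FPKM and the dotted line at 700 bases. Most points right of the dotted line lie above the dashed line, and H2BC12, at 381 bases, is the highest point.

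Copies of the family that are nearly identical were the other limit. Every 150-base stretch of the H2AC18 transcript, the length of 1 read, also occurs in H2AC19, and every such stretch of H3C14 occurs in H3C15. For H4C15 the share was 97.0% with H4C14, and for H4C12 it was 100% with H4C11. In H2AC13, 51.7% of the stretches occur in H2AC14. In H2AC17, 80.7% occur in an annotated transcript of H3C12, which is an H3 gene and not a copy of it. A read from a shared stretch cannot by itself be placed in 1 gene of a pair. The values of these 10 tested genes are therefore uncertain singly, most so where all stretches are shared. The remaining 23 tested genes, H2BC12 among them, shared no 150-base stretch with another of the 66 genes. Only these 66 genes were searched. Stretches shared with the 11 pseudogenes and letter-suffixed genes left out, or with other genes, are not known.

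FPKM summed to between 259184 and 272235 per library, and sequencing depth is unknown. The epithelial markers fixed for the cell line were present, with 6 of 9 at a mean of at least 1 FPKM, led by KRT18, and the summed level lay at 1283 to 1297 FPKM in SFN+5-FU, 1326 to 1823 FPKM in SFN and 1829 to 1833 FPKM in control. Of 13 markers of fibroblasts, endothelium, leukocytes and muscle, 4 reached 1 FPKM, the highest being CD68 at a mean of 4.0 FPKM. The library labelled SFN replicate 2 stood apart from its group. It correlated at 0.993 with each SFN+5-FU library and at 0.963 and 0.968 with SFN replicates 1 and 3. For 25 of the 33 tested histone genes it lay nearer to the SFN+5-FU mean than to the mean of SFN replicates 1 and 3, as it did for 82.6% of all 12662 genes tested. It was kept under its label, and values without it are given beside the results it touches, in a fit where SFN has 2 libraries and these are assumed to vary as the other groups do. Because its place in these same data prompted that fit, p-values without it are descriptive.

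Most tested histone genes rose with both treatments, and as a ratio to control the summed H3 and H4 levels were the highest of the 5 classes in SFN+5-FU. In SFN+5-FU against control, 25 of the 33 tested genes rose and 3 fell, where 66.2% of all genes tested were called, 38.3% higher and 28.0% lower. In SFN against control, 23 rose and 0 fell, where 50.0% of all genes were called, 27.5% higher and 22.5% lower, and 25 of the 33 had an unadjusted p under 0.05. The median log2 fold change of the tested members, on the log2(FPKM + 1) scale, was 0.70 in SFN+5-FU and 0.69 in SFN, each against control, beside medians of 0.10 and 0.05 over all genes. The median was 0.30 in SFN+5-FU and 0.29 in SFN over the 65 members that could be fitted with no filter, and 1.47 and 0.91 over the 16 with a mean of at least 5 FPKM. Both comparisons use the same control libraries. Among the 33 were 5 genes (H2BC7, H2BC17, H3C2, H3C6 and H4C11) with a control mean under 1 FPKM, which passed the filter through the treated groups. Of the other 28, 21 rose and 3 fell in SFN+5-FU, and 20 rose in SFN. The libraries did not overlap for 26 genes higher and 4 lower in SFN+5-FU than in control, beside 45.5% and 33.2% of all genes, and for 25 higher and 0 lower in SFN, beside 31.6% and 25.8%. Without SFN replicate 2, 26 genes rose and 3 fell in SFN+5-FU, where 74.7% of all genes were called, 43.4% higher and 31.3% lower. In SFN 25 rose and 0 fell without it, where 56.9% of all genes were called, 30.0% higher and 26.9% lower, with a member median of 0.54. These are bulk measurements, in which more cells in S phase and more histone RNA in each cell cannot be told apart.

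**Figure D2:**
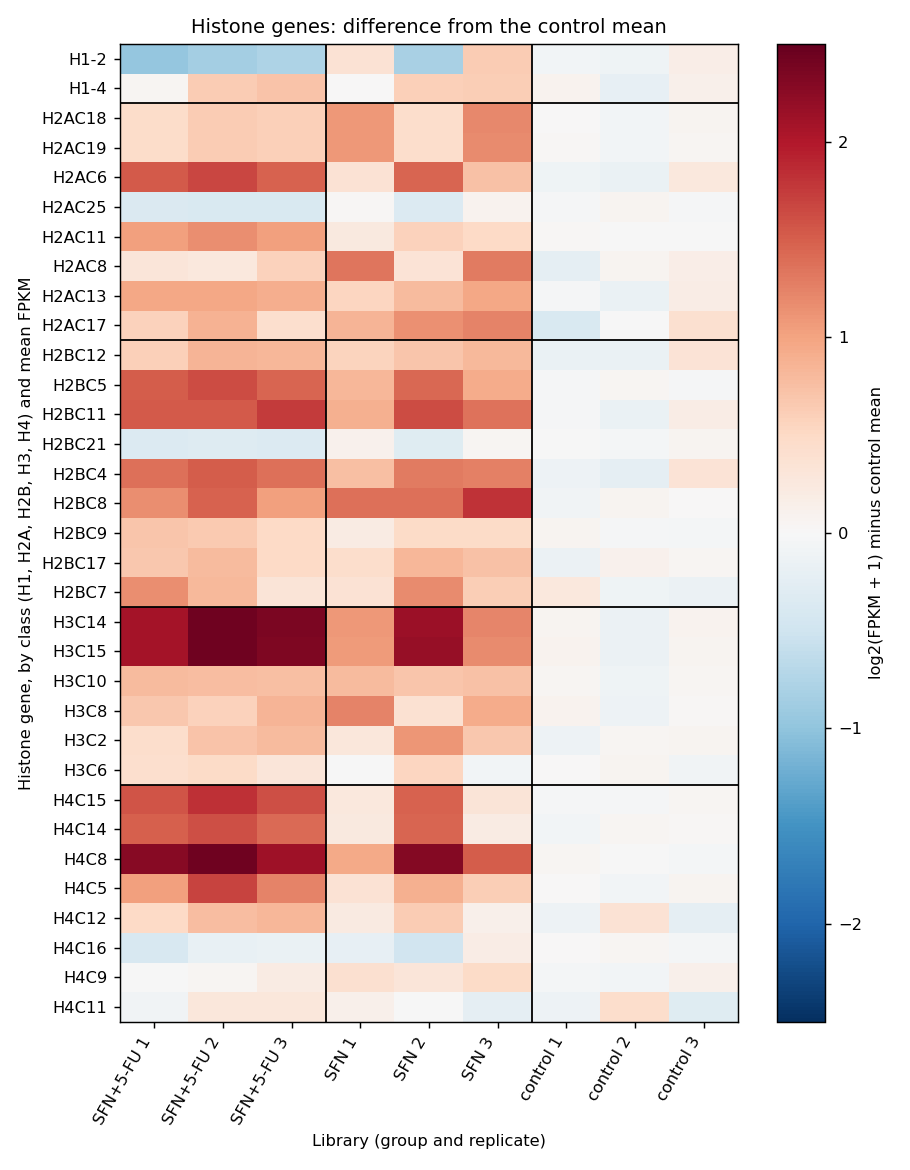
Difference of log2(FPKM + 1) from the control mean for the 33 tested histone genes (rows, by class and falling mean FPKM) in the 9 libraries (columns, by group and replicate), with red above and blue below the control mean. Most rows are red in the SFN+5-FU columns, H1-2, H2AC25 and H2BC21 are blue there, and the SFN 2 column resembles the SFN+5-FU columns more than SFN 1 or SFN 3 in rows such as H3C14, H4C15 and H1-2.

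Summed over all 66 genes, which is less open to misassigned reads, histone RNA was 809, 916 and 886 FPKM in SFN+5-FU, 883, 836 and 1027 FPKM in SFN, and 540, 533 and 650.0 FPKM in control. All 6 treated libraries lay above the 3 control libraries. The ratio of the means to control was 1.52 in SFN+5-FU and 1.59 in SFN. The classes differed in size of change. The H3 sum was 33.9 ± 3.33 FPKM in SFN+5-FU, 25.5 ± 5.30 FPKM in SFN and 10.5 ± 0.305 FPKM in control (SD, n = 3 each), and the H4 sum was 64.4 ± 6.58, 39.9 ± 17.2 and 20.6 ± 0.895 FPKM in the same order. These classes had the largest ratios to control in SFN+5-FU, 3.22 for H3 and 3.12 for H4. In each, 1 nearly identical pair made up the largest part. H3C14 with H3C15 held 52.7% of the H3 sum over all libraries, and H4C15 with H4C14 held 53.0% of the H4 sum. In SFN+5-FU H3C14 and H3C15 were at 7.60 and 7.65 times control. The other tested H3 genes were at 1.73 to 2.77 times control. H4C15 and H4C14 were at 3.60 and 3.19 times control, near the ratio of their class. The other tested H4 genes ran from 0.767 times control for H4C16 to 6.57 times control for H4C8. The H2A sum was 1.63 times control in SFN+5-FU and 1.83 times control in SFN, and the H2B sum was 1.85 and 1.70 times control. The H1 sum alone lay below control in SFN+5-FU, at 0.556 times control.

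**Figure D3:**
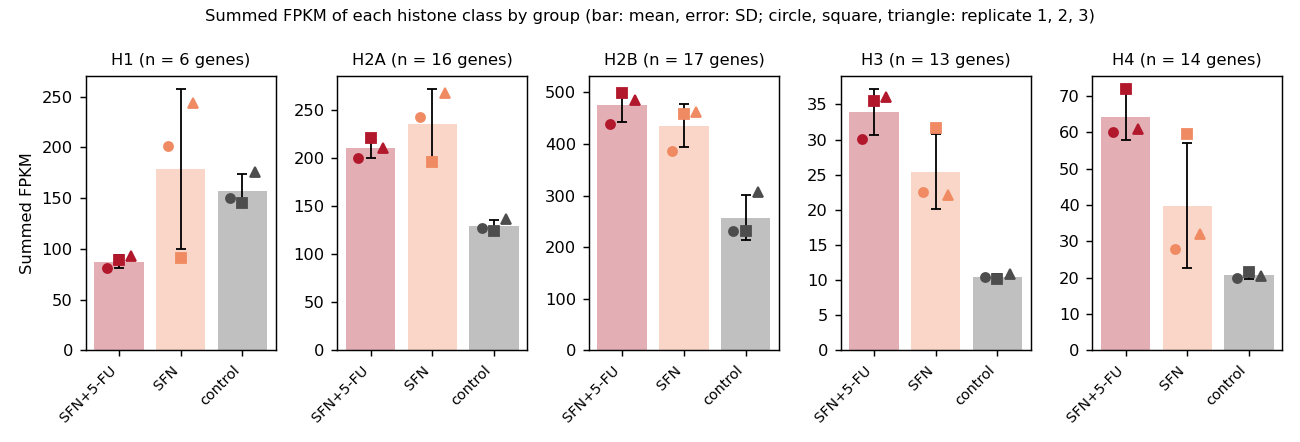
Summed FPKM of all genes of each histone class in SFN+5-FU, SFN and control, with bars for the mean, error bars for the SD and 1 point per library. As ratios to control, 3.22 and 3.12, the H3 and H4 sums of SFN+5-FU lie furthest above it, SFN replicate 2 (square) is the highest SFN library for H3 and H4, and the H1 sum is lowest in SFN+5-FU and in SFN replicate 2.

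The linker histone H1 binds the DNA between nucleosomes. H1-2, which accounts for nearly all H1 signal here, had 78.6, 85.3 and 89.9 FPKM in SFN+5-FU, 199, 87.8 and 240.0 FPKM in SFN and 149, 145 and 174 FPKM in control. SFN replicate 2 was close to the SFN+5-FU libraries, and SFN replicates 1 and 3 exceeded every control library. H1-2 fell in SFN+5-FU against control, with a log2 fold change of -0.87 (SE 0.30, adjusted p = 0.0293). That call was lost with no filter and without any 1 of the control or SFN+5-FU libraries, with an adjusted p of up to 0.0862. The range began at 2.18e-05, and the adjusted p was 2.69e-05 without SFN replicate 2 (SE 0.0913). The value kept between -0.98 and -0.79. In SFN against control the log2 fold change was 0.06 (adjusted p = 0.890), and 0.49 without SFN replicate 2 (adjusted p = 0.00320). With median-of-ratios scaling, or with mitochondrial genes left out, the SFN value with all libraries was -0.01. H1-4, another linker gene, was between 0.77 and 2.34 FPKM in all libraries and did not pass the threshold in either comparison, with log2 fold changes of 0.47 in SFN+5-FU and 0.40 in SFN. It passed under 4 alternatives in SFN+5-FU and 2 in SFN, without SFN replicate 1 in both (lowest adjusted p of 0.0173 and 0.023).

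H2A pairs with H2B on the outer faces of the nucleosome. Of the 8 tested H2A genes, 6 rose and 1 fell in SFN+5-FU and 7 rose in SFN. The nearly identical pair H2AC18 and H2AC19 was the most abundant. H2AC18 had 59.8, 67.4 and 65.3 FPKM in SFN+5-FU, 93.0, 59.0 and 100.4 FPKM in SFN and 43.4, 40.9 and 44.9 FPKM in control. Both treated groups lay above control without overlap, and SFN replicates 1 and 3 were the highest libraries. Its log2 fold change was 0.56 in SFN+5-FU (SE 0.17, adjusted p = 0.0150, and 0.0534 with median-of-ratios scaling, over a range from 2.36e-05) and 0.91 in SFN (SE 0.17, adjusted p = 0.00197), or 1.15 without SFN replicate 2. H2AC19, which holds every stretch of it, gave 0.56 and 0.90, its SFN+5-FU call also lost with that scaling (adjusted p = 0.0532, over a range from 2.9e-05).

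In H2AC6 the SFN+5-FU mean was the higher. It had 48.2, 53.0 and 46.7 FPKM in SFN+5-FU, 20.9, 45.8 and 27.2 FPKM in SFN and 14.9, 14.3 and 19.4 FPKM in control. The SFN+5-FU libraries lay above all others, with SFN replicate 2 close below them. It rose by 1.56 on the log2 scale in SFN+5-FU (SE 0.24, adjusted p = 0.000429) and by 0.85 in SFN (SE 0.24, adjusted p = 0.0152), or 0.54 without SFN replicate 2. The SFN call was lost without control replicate 1 and without control replicate 2, with an adjusted p of up to 0.0551. H2AC11 followed the same order, with 6.98, 7.69 and 6.93 FPKM in SFN+5-FU, 3.60, 4.83 and 4.48 FPKM in SFN and 2.95, 2.87 and 2.87 FPKM in control, no overlap between any of the groups, and log2 fold changes of 1.07 (adjusted p = 2.64e-05) and 0.44 (adjusted p = 0.00430).

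H2AC8 and H2AC17 had the largest H2A changes in SFN. H2AC8 had 3.87, 3.70 and 4.84 FPKM in SFN+5-FU, 9.02, 3.98 and 8.70 FPKM in SFN and 2.37, 3.12 and 3.4 FPKM in control, so that SFN replicates 1 and 3 stood far above the other libraries. Its log2 fold change was 1.00 in SFN (adjusted p = 0.00868), 1.32 without SFN replicate 2, and 0.38 in SFN+5-FU (adjusted p = 0.200, and 0.0138 without SFN replicate 2, over a range from 0.00517 to 0.437). H2AC17 had 2.59, 3.42 and 2.25 FPKM in SFN+5-FU, 3.33, 4.33 and 4.68 FPKM in SFN and 0.860, 1.39 and 2.17 FPKM in control, with log2 fold changes of 0.62 (adjusted p = 0.0193, up to 0.0742 without control replicate 1, without control replicate 2, without SFN+5-FU replicate 2 or with no filter) and 1.07 (adjusted p = 0.00194). H2AC25, which lies on chromosome 1 head to head with H2BC26, fell in SFN+5-FU. It had 10.8, 10.6 and 10.5 FPKM in SFN+5-FU, 14.4, 10.9 and 14.9 FPKM in SFN and 13.8, 14.8 and 13.7 FPKM in control, a log2 fold change of -0.37 in SFN+5-FU (adjusted p = 0.0118) and -0.08 in SFN (adjusted p = 0.570). The SFN+5-FU libraries all lay below the control libraries. H2AC13 had 4.0, 4.02 and 3.81 FPKM in SFN+5-FU, 2.74, 3.41 and 3.99 FPKM in SFN and 1.52, 1.29 and 1.91 FPKM in control, with both treated groups above control, and rose by 0.95 (adjusted p = 0.000165) and 0.76 (adjusted p = 0.000867).

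Of the 9 tested H2B genes, 8 rose in both treatments, and the ninth, H2BC21, fell in SFN+5-FU. H2BC12 had 287, 338 and 335 FPKM in SFN+5-FU, 277, 306 and 331 FPKM in SFN and 167, 167 and 238 FPKM in control. Control replicate 3 was the highest control library and still lay below all treated libraries. Its log2 fold change was 0.76 in SFN+5-FU (SE 0.14, adjusted p = 0.00125) and 0.69 in SFN (SE 0.14, adjusted p = 0.00325), or 0.68 without SFN replicate 2, and the ranges of the treated groups overlapped.

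The largest H2B changes in both comparisons were in H2BC11, H2BC5, H2BC4 and H2BC8. H2BC11 had 32.4, 32.7 and 38.1 FPKM in SFN+5-FU, 20.3, 35.1 and 28.6 FPKM in SFN and 10.4, 9.38 and 12.2 FPKM in control, and rose by 1.61 (SE 0.17, adjusted p = 7.49e-05) and 1.29 (SE 0.17, adjusted p = 0.000392). Every treated library was above every control library, and the treated groups overlapped. H2BC5 had 72.1, 77.7 and 69.1 FPKM in SFN+5-FU, 44.2, 68.1 and 47.4 FPKM in SFN and 24.0, 25.4 and 24.1 FPKM in control, and rose by 1.53 (SE 0.14, adjusted p = 3.12e-05) and 1.06 (SE 0.14, adjusted p = 0.000328), or 0.88 in SFN without SFN replicate 2. Its SFN+5-FU libraries lay above all SFN libraries, and SFN replicate 2 was the nearest to them. H2BC8 had 9.37, 11.8 and 8.41 FPKM in SFN+5-FU, 10.9, 10.9 and 15.1 FPKM in SFN and 3.33, 3.84 and 3.66 FPKM in control, and rose by 1.23 (SE 0.14, adjusted p = 0.000108) and 1.52 (SE 0.14, adjusted p = 6.74e-05). Its treated groups overlapped, and both lay above control. H2BC4 had 13.8, 15.2 and 13.7 FPKM in SFN+5-FU, 8.53, 12.97 and 12.7 FPKM in SFN and 4.22, 3.87 and 6.18 FPKM in control, and rose by 1.42 (adjusted p = 0.00014) and 1.11 (adjusted p = 0.000884).

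H2BC21 differed from its class. It had 12.9, 13.3 and 12.9 FPKM in SFN+5-FU, 18.1, 13.4 and 17.4 FPKM in SFN and 16.7, 16.1 and 17.5 FPKM in control, with SFN replicate 2 again beside the SFN+5-FU libraries. Its log2 fold change was -0.34 in SFN+5-FU (SE 0.10, adjusted p = 0.0152), which no longer passed when control replicate 3 was left out (adjusted p = 0.0514, over a range from 5.15e-05), and -0.05 in SFN (adjusted p = 0.720). The other H2B genes that rose were H2BC9, at 0.62 in SFN+5-FU and 0.39 in SFN, H2BC17 at 0.65 and 0.66, and H2BC7 at 0.77 and 0.71. Of these, H2BC7 had a mean of 1.35 FPKM and lost its call under 6 alternatives in SFN+5-FU and 7 in SFN, and H2BC9 lost its SFN call with a correction for GC content and length.

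**Figure D4:**
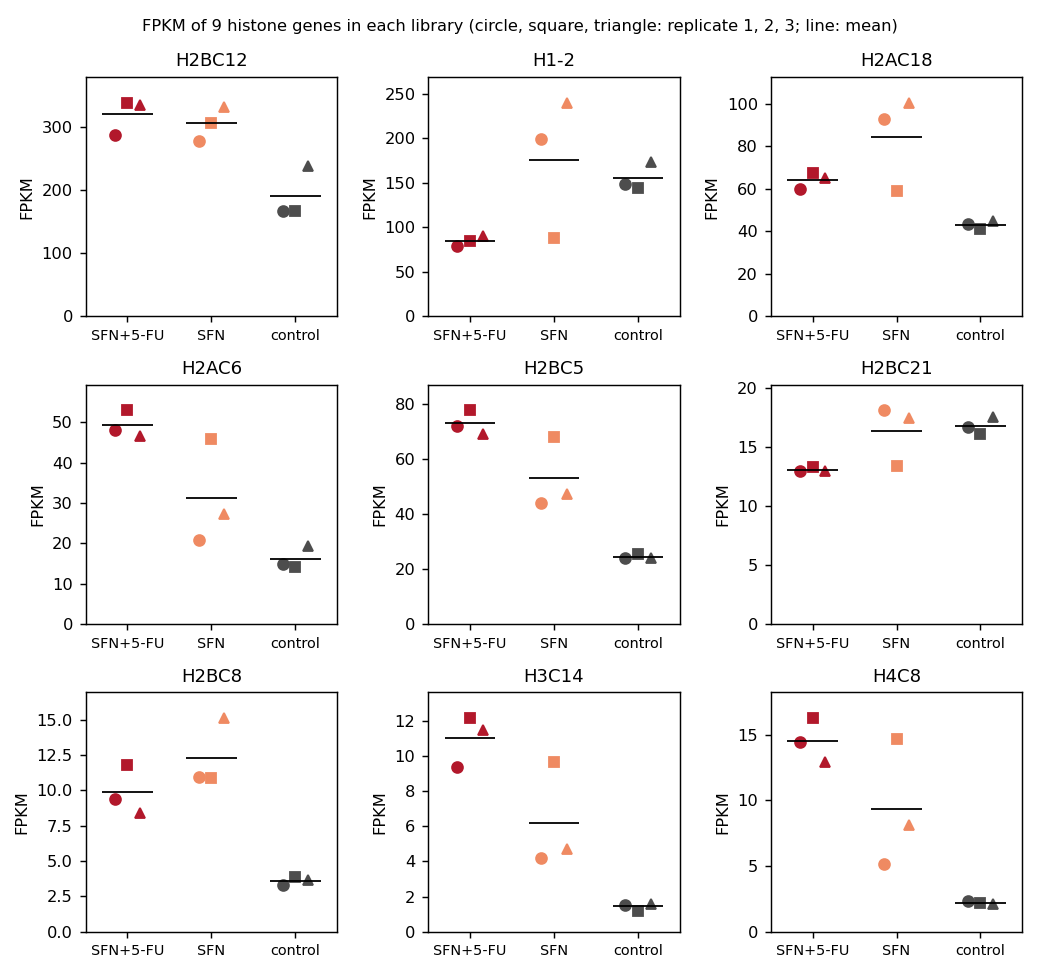
FPKM of 9 histone genes in each library, in SFN+5-FU, SFN and control from left to right, with circle, square and triangle for replicates 1, 2 and 3 and a line for the mean. H2BC12 was above control in all treated libraries, H2AC18 was highest in SFN replicates 1 and 3, and for H2AC6, H2BC5, H3C14 and H4C8 the SFN+5-FU mean was the highest, with SFN replicate 2 near or within the range of those libraries.

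H3 and H4 form the core of the nucleosome. All 6 tested H3 genes rose in SFN+5-FU and 5 rose in SFN. The identical pair H3C14 and H3C15 had the largest changes of all tested members in SFN+5-FU. H3C14 had 9.35, 12.2 and 11.5 FPKM in SFN+5-FU, 4.18, 9.67 and 4.69 FPKM in SFN and 1.55, 1.20 and 1.59 FPKM in control, and H3C15, read with it, had 9.14, 11.8 and 11.1, 3.99, 9.83 and 4.41 and 1.54, 1.15 and 1.5 FPKM in the same order. The treated groups did not overlap control, and SFN replicate 2 lay within the SFN+5-FU range. H3C14 rose by 2.29 in SFN+5-FU (SE 0.24, adjusted p = 6.14e-05) and by 1.48 in SFN (SE 0.24, adjusted p = 0.000991), or 1.15 without SFN replicate 2. H3C15 rose by 2.28 and 1.47. H3C10, at 4.08, 4.02 and 3.97 FPKM in SFN+5-FU, 4.09, 3.78 and 3.90 FPKM in SFN and 2.04, 1.74 and 2.05 FPKM in control, had the smallest spread of the class and rose by 0.77 and 0.74. H3C8 rose by 0.70 and 0.85, the first lost with a correction for GC content and length (adjusted p = 0.0737, over a range from 7.1e-05), and H3C2 rose by 0.65 and 0.69, the second lost without control replicate 1 (adjusted p = 0.0503, over a range from 0.000361). H3C6, with a mean of 1.05 FPKM, rose by 0.40 in SFN+5-FU (adjusted p = 0.0390), a call lost under 10 alternatives (adjusted p of up to 0.179), and had 0.15 in SFN (adjusted p = 0.419).

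Of the 8 tested H4 genes, 5 rose in SFN+5-FU and 3 in SFN. H4C8 had 14.5, 16.3 and 12.9 FPKM in SFN+5-FU, 5.19, 14.7 and 8.16 FPKM in SFN and 2.32, 2.21 and 2.11 FPKM in control. It was lowest in control, and SFN replicate 2 lay within the SFN+5-FU range. H4C8 rose by 2.27 (SE 0.27, adjusted p = 0.000117) and 1.58 (SE 0.27, adjusted p = 0.00131), or 1.23 in SFN without SFN replicate 2. H4C15, the most abundant H4 gene, had 17.7, 21.2 and 18.1 FPKM in SFN+5-FU, 6.49, 16.4 and 6.88 FPKM in SFN and 5.18, 5.17 and 5.46 FPKM in control, and rose by 1.67 in SFN+5-FU (SE 0.27, adjusted p = 0.000627). In SFN its log2 fold change was 0.69 (SE 0.27, adjusted p = 0.0600), and 0.29 without SFN replicate 2 (adjusted p = 0.0115). Its near copy H4C14 gave 1.51 (adjusted p = 0.00124) and 0.63 (adjusted p = 0.0850, and 0.0205 at 0.22 without SFN replicate 2). Both genes also passed in SFN without SFN replicate 1 or without SFN replicate 3, at up to 0.90 for H4C15 and 0.84 for H4C14. SFN replicates 1 and 3 of this pair were only slightly above control, while SFN replicate 2 and the SFN+5-FU libraries lay far above both.

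H4C5 had 3.60, 6.31 and 4.34 FPKM in SFN+5-FU, 1.92, 3.19 and 2.48 FPKM in SFN and 1.28, 1.16 and 1.39 FPKM in control and rose by 1.31 and 0.62, the second lost without control replicate 2 and with a correction for GC content and length (adjusted p of up to 0.0561). H4C12, whose stretches all occur in H4C11, rose by 0.70 in SFN+5-FU (adjusted p = 0.00755) and had 0.33 in SFN (adjusted p = 0.160, over a range from 0.0418 without control replicate 2 to 0.399). H4C9 was the reverse case, at 0.39 in SFN (adjusted p = 0.00661) and 0.08 in SFN+5-FU (adjusted p = 0.448). H4C16, the lone member on chromosome 12, and H4C11 passed the threshold in neither comparison, with log2 fold changes between -0.25 and 0.16.

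**Figure D5:**
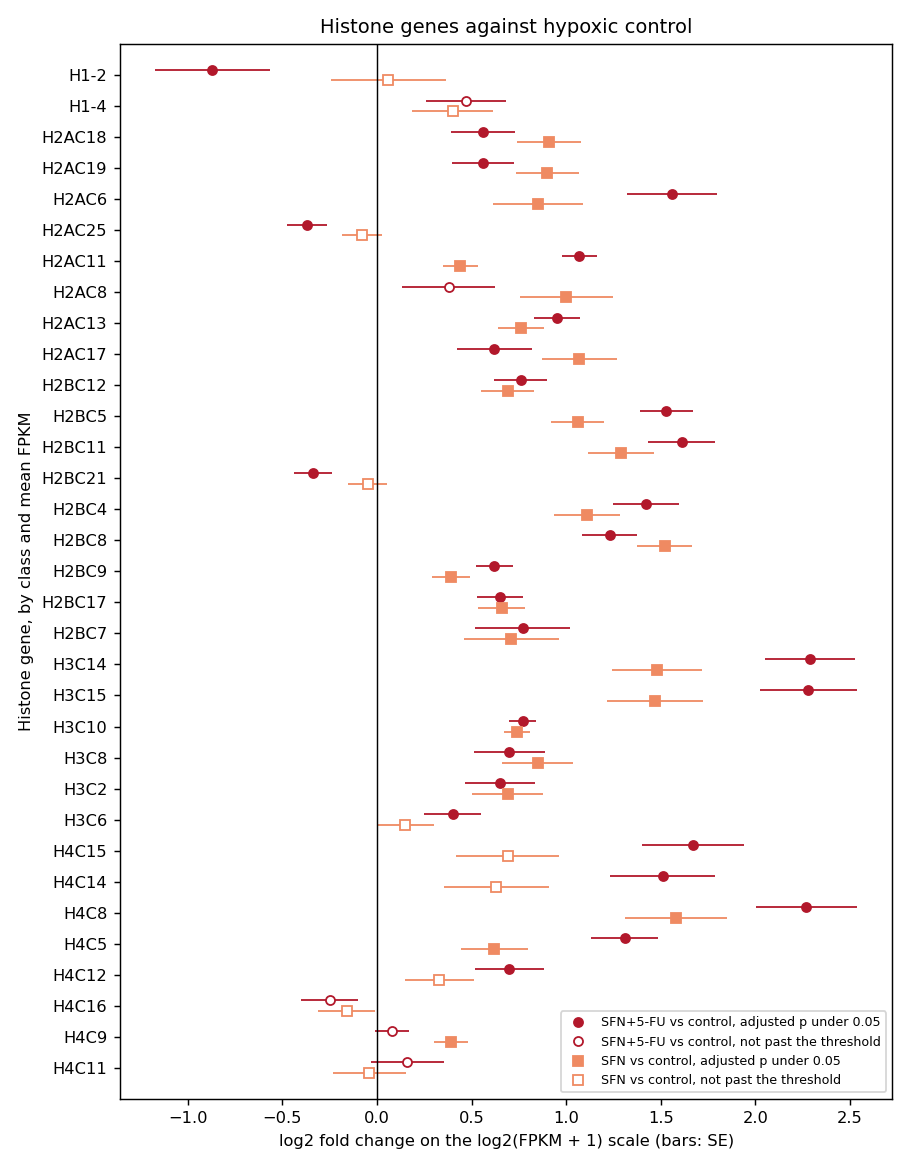
Log2 fold change on the log2(FPKM + 1) scale, with its SE, of the 33 tested histone genes in SFN+5-FU (circles, upper of each pair) and SFN (squares, lower), each against control, with filled symbols for an adjusted p under 0.05. Values run from -0.87 for H1-2 to 2.29 for H3C14 in SFN+5-FU and from -0.16 for H4C16 to 1.58 for H4C8 in SFN.

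The comparison of SFN+5-FU with SFN depended on SFN replicate 2. That library was singled out by its values in these same data, near SFN+5-FU for most genes. Leaving it out therefore tends to widen the difference and narrow the spread, with the SE of H1-2 going from 0.303 to 0.102. The calls and p-values without it describe the remaining libraries and are not independent support for a difference. With all 9 libraries, none of the 33 genes passed limma's test at an adjusted p of 0.05, 16 had an unadjusted p under 0.05, and 0.00790% of all genes were called. The groups did not overlap for 7 genes higher and 3 lower in SFN+5-FU, beside 10.6% and 10.3% of all genes. Without SFN replicate 2, 13 genes rose and 8 fell in SFN+5-FU against SFN, where 51.2% of all genes were called, 29.8% higher and 21.4% lower, and with library weights 12 rose and 11 fell, where 58.7% of all genes were called. Without that library the H4 genes H4C15, H4C14 and H4C8 rose by 1.38, 1.28 and 1.04, H3C15 and H3C14 by 1.16 and 1.14, and H2AC6 by 1.01. In the same comparison H1-2 had -1.36 (adjusted p = 2.86e-05), H2AC8 -0.95 (adjusted p = 0.000386), H2AC18 -0.59 (adjusted p = 0.000167) and H2BC21 -0.42 (adjusted p = 0.000278), all lower in SFN+5-FU. H2BC12 had 0.07 (adjusted p = 0.722). By class, 5 of the 8 H4 genes rose and 1 fell, while of the 8 H2A genes 2 rose and 4 fell.

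Many H2A and H2B genes lie head to head and share the stretch between their starts. Of the 61 genes that could be matched in the RefSeq annotation, 20 form 10 such pairs, and in 4 pairs both genes were tested. Pairs with an unmatched gene could not be seen. H2BC4 and H2AC6, with 245 bases between their starts, rose by 1.42 and 1.56 in SFN+5-FU and by 1.11 and 0.85 in SFN. H2BC11 and H2AC11 rose by 1.61 and 1.07 in SFN+5-FU and by 1.29 and 0.44 in SFN. H2BC8 and H2AC8 had 1.23 and 0.38 in SFN+5-FU, of which only the first passed the threshold, and rose by 1.52 and 1.00 in SFN. H2BC17 and H2AC17 rose by 0.65 and 0.62 in SFN+5-FU and by 0.66 and 1.07 in SFN. The genes that fell in the core classes, H2BC21 and H2AC25, each have a partner below the filter, H2AC20 and H2BC26. So do H2AC13 and H2BC7, which rose by 0.95 and 0.77 in SFN+5-FU and by 0.76 and 0.71 in SFN.

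The stretches upstream of 4 genes are shown as examples, with H2AC6, H2AC8 and H2BC21 from head-to-head pairs and H4C8 from outside them. They come from RefSeq on build GRCh38.p14, 5′ to 3′ on the strand of the named gene and ending at its start, and capitals mark 3 motifs searched on both strands: the octamer ATTTGCAT, known as the site of OCT1 in H2B promoters, CCAAT, and TATAAA. None of the marked motifs overlap.
H2AC6 (chr6:26123927-26124171, plus strand, the stretch shared with H2BC4): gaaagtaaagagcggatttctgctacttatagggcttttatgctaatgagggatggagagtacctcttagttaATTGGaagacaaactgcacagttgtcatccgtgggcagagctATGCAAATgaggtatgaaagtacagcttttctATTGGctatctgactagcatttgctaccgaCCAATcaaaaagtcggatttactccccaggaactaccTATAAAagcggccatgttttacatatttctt
H2AC8 (chr6:26216689-26216920, plus strand, the stretch shared with H2BC8): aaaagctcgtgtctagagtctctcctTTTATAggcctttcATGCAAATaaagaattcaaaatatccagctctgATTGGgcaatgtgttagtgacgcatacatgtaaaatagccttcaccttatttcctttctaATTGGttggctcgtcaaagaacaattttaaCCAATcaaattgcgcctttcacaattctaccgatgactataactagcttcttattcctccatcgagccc
H2BC21 (chr1:149886683-149886917, minus strand, the stretch shared with H2AC20): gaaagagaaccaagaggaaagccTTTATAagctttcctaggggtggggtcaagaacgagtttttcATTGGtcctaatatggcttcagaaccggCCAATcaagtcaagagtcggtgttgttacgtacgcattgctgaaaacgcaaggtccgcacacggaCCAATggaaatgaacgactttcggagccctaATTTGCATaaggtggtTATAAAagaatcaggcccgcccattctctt
H4C8 (chr6:26285535-26285684, minus strand): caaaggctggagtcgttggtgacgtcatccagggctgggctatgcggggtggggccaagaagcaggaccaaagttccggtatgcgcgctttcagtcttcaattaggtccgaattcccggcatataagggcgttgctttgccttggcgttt
The H2AC6, H2AC8 and H2BC21 stretches each hold 1 octamer and 3 CCAAT motifs, with 1, 1 and 2 TATAAA motifs. H4C8, which had one of the largest changes, holds none of the 3 in its 150 printed bases. Within 250 bases upstream of the start, the octamer was in 13 of 17 H2B genes, 10 of 15 H2A genes, 1 of 11 H3 genes, 0 of 12 H4 genes and 0 of 6 H1 genes, against 1.63% of 35116 promoters. CCAAT was in 51 of 61 histone genes with a promoter entry, but in 2 of 12 H4 genes, against 32.0% of all promoters, and TATAAA was in 39 of 61 against 10.7%. A shared stretch is counted for both genes of a pair. The octamer was present upstream of 8 of the 9 tested H2B genes. Among these, H2BC21 fell in SFN+5-FU and H2BC11 rose, and H2BC5, the tested H2B gene without it, rose by 1.53. Whether any of these motifs bears on the changes was not tested.

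Genes that serve histone supply were set beside the members. Of 31 genes for histone transcription, 3′-end processing and decay, 20 rose and 2 fell in SFN+5-FU and 18 rose and 1 fell in SFN, with median log2 fold changes of 0.48 and 0.32. Over all genes, 38.3% rose in SFN+5-FU and 27.5% in SFN, and the medians were 0.10 and 0.05. In SFN 12 of the 31 rose without control replicate 2 and 14 without control replicate 1. SLBP, which binds the stem-loops shown above, had 81.2, 85.2 and 83.7 FPKM in SFN+5-FU, 52.7, 77.6 and 59.9 FPKM in SFN and 38.2, 43.1 and 45.5 FPKM in control, with log2 fold changes of 0.97 and 0.56. Every treated library exceeded every control library. NPAT, the coactivator of histone loci that cyclin E with CDK2 switches on, rose by 0.60 and 0.43, the SFN call lost with no filter and without control replicate 2 (adjusted p of up to 0.0802). ZNF473, a component of the U7-dependent processing machinery, rose by 1.16 and 0.93, and CDC25A, a phosphatase that activates CDK2, by 1.38 and 1.03. CSTF2, a cleavage factor shared with polyadenylation, rose by 0.93 and 0.99. CASP8AP2 had 0.55 in SFN+5-FU (adjusted p = 0.00804) and 0.28 in SFN (adjusted p = 0.132, under 0.05 without SFN replicate 1 and with library weights), and HINFP, a transcription factor for H4 genes, had 0.30 (adjusted p = 0.0117) and 0.04 (adjusted p = 0.744).

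Of 42 genes of DNA replication, 35 rose and 1 fell in SFN+5-FU and 33 rose and 1 fell in SFN, with medians of 0.69 and 0.49, beside the same 38.3% and 27.5% of all genes that rose. In SFN 24 of the 42 rose without control replicate 1 and 25 without control replicate 2. PCNA, the sliding clamp of the replication fork, had 322, 328 and 333 FPKM in SFN+5-FU, 214, 313 and 249 FPKM in SFN and 175, 178 and 214 FPKM in control, and rose by 0.80 and 0.44, or 0.29 in SFN without SFN replicate 2. Its SFN call was lost under 5 alternatives, among them the fits without control replicate 1 or 2 (adjusted p of up to 0.114). CCNE2, a cyclin E gene, had 5.48, 5.88 and 5.55 FPKM in SFN+5-FU, 1.5, 5.81 and 2.13 FPKM in SFN and 1.03, 0.770 and 1.35 FPKM in control, and rose by 1.70 and 0.89, or 0.46 in SFN without SFN replicate 2 (adjusted p = 0.0147). Its SFN call was lost under 9 alternatives, among them the fits without any 1 control or SFN+5-FU library (adjusted p of up to 0.111). In both genes SFN replicate 2 was at or near the SFN+5-FU level, as in H3C14 and H4C8. CLSPN rose by 1.89 and 1.03, or 0.61 in SFN without SFN replicate 2, and its SFN call was lost with no filter and without control replicate 1 or 2 (adjusted p of up to 0.0662). RRM2, a subunit of ribonucleotide reductase, rose by 1.48 and 0.90. Among 25 histone chaperones and assembly factors, 13 rose and 3 fell in SFN+5-FU and 11 rose and 3 fell in SFN, so that 16 and 14 of the 25 were called, near the 66.2% and 50.0% called over all genes. In SFN 8 rose and 2 fell without control replicate 1, and likewise without control replicate 2. DNAJC9, a chaperone of H3 and H4, rose by 1.74 and 0.99, or 0.61 in SFN without SFN replicate 2, and its SFN call was lost without control replicate 1 or 2 (adjusted p of up to 0.0539). The genes ASF1B and CHAF1A, which hand H3 and H4 to new DNA, rose by 0.55 and 0.48 in SFN+5-FU and 0.36 and 0.42 in SFN, where the ASF1B call was lost under 4 alternatives, among them the fits without control replicate 1 or 2 (adjusted p of up to 0.0899). NASP, which holds the pool of H3 and H4, had -0.02 and 0.21 and passed the threshold in neither, though in SFN it passed without SFN replicate 2 (0.31, adjusted p = 0.00514, over a range up to 0.295) and with library weights.

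The replacement histones, whose supply is not tied to S phase and whose mRNAs are mostly polyadenylated (H2AX also has a stem-loop form), did not move as one. Of 11 tested, 3 rose and 6 fell in SFN+5-FU and 3 rose and 5 fell in SFN, with medians of -0.18 and -0.20, beside 28.0% and 22.5% of all genes that fell. H1-10, a linker variant, had 54.6, 57.8 and 60.6 FPKM in SFN+5-FU, 67.0, 62.4 and 65.1 FPKM in SFN and 124, 131 and 106 FPKM in control, with log2 fold changes of -1.04 (adjusted p = 1.87e-05) and -0.87 (adjusted p = 7.06e-05). It lay below control in all 6 treated libraries, SFN replicates 1 and 3 included, unlike H1-2. The 3 that rose were H2AX, the variant phosphorylated at DNA breaks, by 0.49 and 0.42, H2AZ1 by 0.33 and 0.31, and H3-3B by 0.63 and 0.47. Most of the genes that fell are not named here. H3-3A, which encodes the same replacement H3 protein as H3-3B, was among those that fell, at -0.18 and -0.20. Its SFN+5-FU call was lost without SFN+5-FU replicate 1 (adjusted p = 0.0519).

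Small RNAs without a poly(A) tail were listed to show what the selection let through. Of 23 such RNAs, 4 reached a mean of 1 FPKM, and 2 of these (RN7SK and SNORA73B) rose in each comparison, beside 38.3% of all genes in SFN+5-FU and 27.5% in SFN. The summed level of the 23 was 36.6 to 81.0 FPKM in SFN+5-FU, 25.5 to 66 FPKM in SFN and 15.1 to 21.3 FPKM in control, and RNU7-1, the RNA of the U7 particle, was listed at 0 in all 9 libraries. RN7SK had 13.97, 36.2 and 15.4 FPKM in SFN+5-FU, 5.53, 24.3 and 12.3 FPKM in SFN and 2.78, 4.94 and 4.21 FPKM in control, with log2 fold changes of 2.10 (adjusted p = 0.00421) and 1.41 (adjusted p = 0.0362). The SFN call was lost with no filter and without SFN replicate 2 (0.93), SFN replicate 3 or any 1 control library, with an adjusted p of up to 0.114. SNORA73B had 12.1, 8.91 and 10.0, 12.5, 12.5 and 14.8 and 5.21, 5.89 and 7.20 FPKM in the same order. RN7SL1 and RN7SL2 passed the threshold in neither comparison, though RN7SL1 did in both with the replicate block. SFN+5-FU replicate 2 and SFN replicate 2 held the most RN7SK of their groups, and the H3 and H4 sums of SFN replicate 2 were also the highest of its group. Within SFN+5-FU the H4 sum was highest in replicate 2, at 72.0 FPKM. The H3 sum there was highest in replicate 3, at 36.1 FPKM against 35.5 FPKM in replicate 2. The summed histone FPKM was the highest of its group in SFN+5-FU replicate 2 and the lowest of its group in SFN replicate 2. How far passage of tailless RNA through the selection contributed to the histone values was not tested.

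The 33 histone genes below the filter added little to the sums, with 12.5 FPKM in SFN+5-FU, 13.2 FPKM in SFN and 10.0 FPKM in control on average. The mean was higher than in control for 18 of them in SFN+5-FU and for 20 in SFN. The highest of each class were H1-5, H2AC15, H2BC18, H3C13 and H4C3, at mean levels of 0.629, 0.996, 0.911, 0.749 and 0.604 FPKM. With no filter, 65 of the 66 genes could be fitted, and among the low genes 5 were called higher (H1-6, H2BC15, H2BC18, H4C3 and H4C4) and 1 lower (H2AC20, at -0.65) in SFN+5-FU, and 1 higher (H1-5) in SFN. In that fit 28.5% of all 36755 genes were called in SFN+5-FU and 19.4% in SFN. H2AC20, the head-to-head partner of H2BC21, and H2BC21 itself were thus both lower in SFN+5-FU. H2AC25 also fell there, while its partner H2BC26 had a mean of 0.573 FPKM against 0.473 FPKM in control, with overlapping libraries.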

How the data were processed

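Poly(A) RNA of 9 SW480 libraries was sequenced as dUTP-stranded, paired 150-base reads, per the labels' protocols. The deposited table holds gene-level FPKM made by the authors, and the submitters' processing notes name fastp, StringTie and edgeR without versions or settings. No aligner, genome build or annotation is named in those sources, so FPKM depends on transcript lengths that are unknown, as is the depth. How reads shared by near-identical histone copies were assigned is likewise not stated.

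Histone genes were matched by Ensembl identifier to symbols. The members and the gene lists were chosen with earlier results of these data known. Genes with a mean of at least 1 FPKM over all libraries (12662) were tested as log2(FPKM + 1), which understates changes of low genes. The 9 libraries were fitted together in limma, its prior variance following mean expression (6 residual and 3.2 prior degrees of freedom), for 3 contrasts, with 2-sided p-values adjusted by the Benjamini-Hochberg method over all tested genes within each contrast. A gene was called at an adjusted p under 0.05. The fit was tested on simulated data. The p-values measure the spread between 3 libraries per group, which the study describes as biological replicates.

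Values are given for all tested members, with the fullest account for the most abundant member of each class and the 2 called members of each class with the largest change. From each other list come the 3 called genes with the largest change per comparison and a few set genes; 1 gene that this rule takes is not reported here. Stem-loops, transcript lengths and shared 150-base stretches come from GENCODE release 29, and promoters and gene neighbours from RefSeq, matched for 61 of the 66 genes. No fold change uses them. Alternatives to the filter, the pseudocount, the scaling and the variance model were run, as were a replicate block, a correction for GC content and transcript length, and fits without each library. Work used R 4.3.3, limma 3.58.1, Python 3.11.15, pandas 2.3.3 and matplotlib 3.10.9.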

Additional observations from a re-analysis of the deposited data

How the results depend on the processing

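The directions of the median and of the summed ratio against control held under every alternative run, in SFN+5-FU and in SFN. Against control, the number of histone genes called lay between 24 and 31 in SFN+5-FU and between 20 and 27 in SFN wherever the same 33 genes were tested. With the filter at 5 FPKM, 16 of 16 were called in SFN+5-FU and 11 of 16 in SFN, since fewer genes were tested. The median log2 fold change against control moved in SFN+5-FU to 1.47 and in SFN to 0.91 with that filter, to 0.30 and 0.29 with no filter, and to 1.02 and 0.91 with a pseudocount of 0.1. In SFN+5-FU it was 0.62 with median-of-ratios scaling and 0.63 with mitochondrial genes left out. Leaving out 1 library at a time gave medians of 0.67 to 0.76 in SFN+5-FU and 0.54 to 0.81 in SFN, each against control. In SFN+5-FU against SFN, 23 genes were called with library weights and 21 without SFN replicate 2, against 0 in all other alternatives, and the median was 0.32 with the filter at 5 FPKM. The summed log2 ratio of SFN+5-FU to SFN was -0.07, and ranged from -0.13 to 0.02 without 1 library, the highest without SFN replicate 3. For H1-2 in SFN against control the log2 fold change was -0.01 with both scalings, and from -0.23 to 0.49 without 1 library, below 0 without SFN replicate 1 (-0.10) and without SFN replicate 3. For H2BC12 in SFN+5-FU against SFN it was -0.04 with library weights. H4C16 was called lower in SFN without SFN replicate 3 (adjusted p = 0.0376, at -0.34). The cause of these shifts was not tested.

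No pairing of the samples by replicate number was seen, though with 3 libraries per group this check cannot exclude it. Of 9 pairs with the same number, 1 had a correlation of deviations above 0.1 (range -0.143 to 0.107), against 3 of 18 other pairs (range -0.247 to 0.182). With the replicate block, 29 genes were called in SFN+5-FU and 24 in SFN, each against control, and 0 in SFN+5-FU against SFN. With depth unknown, counting error could not be set beside the spread between libraries.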
